A study of Homo sapiens with 8 samples.

Results

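CTCF peaks were examined at 3 developmental loci that are standard examples of regulatory domains separated by boundaries. They hold 7 named genes, which are KCNJ2 and SOX9 on chromosome 17, IHH, EPHA4 and PAX3 on chromosome 2, and SHH and LMBR1 on chromosome 7. A peak belonged to a locus if its centre lay in a window of 3.5 Mb around KCNJ2 and SOX9, 4.0 Mb around IHH, EPHA4 and PAX3, or 2.0 Mb around SHH and LMBR1 (hg19). Of the 47470 peaks in control cells, 174 lay in these windows, and of the 29558 peaks in treated cells, 124 did. The study mapped CTCF by ChIP-seq in HT1080 cells, a human fibrosarcoma line derived from connective tissue, to see whether a curaxin changes where CTCF sits on chromatin. One group was left untreated, and the other received 3 µM of the curaxin CBL0137, a small molecule that binds DNA, for 6 h. Each group had 2 ChIP and 2 input replicates, 8 samples in all, and each peak list was called from both replicates of a group together. No value per replicate is held by the lists, so the spread between replicates could not be computed, no test between the conditions was made, and every difference below is a description of the 2 pooled lists.

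CTCF is a zinc-finger protein that binds a long, non-palindromic DNA motif and holds cohesin on chromatin. Cohesin loops often end at a pair of CTCF motifs that point toward each other, and the borders of topologically associating domains are rich in such sites. SOX9, a transcription factor of cartilage and testis, and KCNJ2, an inward-rectifier potassium channel gene, lie in neighbouring domains, and duplications across their border cause limb malformation. EPHA4, an ephrin receptor tyrosine kinase gene, lies between IHH, which encodes a hedgehog ligand of the growth plate, and PAX3, a paired-box factor of neural crest and muscle. Rearrangements that remove the borders of the EPHA4 domain let its limb enhancers act on the flanking genes. SHH, a hedgehog ligand of limb and neural tube, is driven in the limb bud by an enhancer that lies far away in an intron of LMBR1, a gene for a membrane protein. These enhancers are known from limb tissue, and expression and chromosome contacts in HT1080 cells were not analysed here.

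The sequences below show the CTCF core in peaks on which the description of each locus turns. Each is 30 bases of hg19, written 5′ to 3′ on the strand of the match, and the capitals mark the 12 bases aligned to the CTCF core consensus. The best match was searched on both strands over 400 bp around each peak centre, and a match with at most 1 mismatch was counted. The peaks shown include ones chosen after their values were seen.

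The KCNJ2 to SOX9 stretch is shown by kept peaks (overlapped by a treated peak) and lost peaks (overlapped by none). The first and the second are neighbouring peaks with opposite fates, and the last 2 hold the perfect consensus and were lost.
kept, chr17:68618727-68618738, minus strand: ttgagatggCCAACAGATGGCgcctttgtg
lost, chr17:68626255-68626266, minus strand: gctgtgctaCCACAAGATGGCaggggagta
kept, chr17:69080558-69080569, minus strand: ctttggcaaCCACCAGGGGGCagggaaagg
lost, chr17:69114392-69114403, plus strand: tatttttttCCACCAGGTGGCaatgccctc
lost, chr17:69234122-69234133, plus strand: tatcaatttCCAGCAGATGGCatctcacac

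Around EPHA4, the set holds the strongest lost peak of the 3 loci, a strong kept peak beside SLC4A3, the peak at the EPHA4 start, and a lost and a kept peak between EPHA4 and PAX3.
lost, chr2:220076443-220076454, minus strand: catgtagtcCCACCAGGAGGCtgtagtgag
kept, chr2:220507402-220507413, minus strand: gccgcggatCCACCAGGTGGCagtgctgct
kept, chr2:222438412-222438423, minus strand: cgcatctggCCGGCAGGTGGCgcggttggc
lost, chr2:222903281-222903292, plus strand: ctacatttgCCACAAGAGGGCtgactatgg
kept, chr2:222922145-222922156, plus strand: tctatacaaCCACTAGATGGCactaattgt

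At SHH and LMBR1, the set holds the kept peaks on either side of SHH, a kept and a lost peak inside LMBR1, and the peak at the start of NOM1, beyond LMBR1.
kept, chr7:155589824-155589835, plus strand: ccgaggcgaCCACCAGAGGGCgcgcggact
kept, chr7:155608116-155608127, plus strand: cggcccctgCCGCTAGATGGCctcctcact
kept, chr7:156609853-156609864, minus strand: tttgtaactCCAGCAGATGGAgctagaagt
lost, chr7:156620472-156620483, minus strand: tgttggttgCCACAAGATGGCattggcctc
kept, chr7:156742338-156742349, plus strand: gccctccggCCAGCAGGGGGCgccgcccgc

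Most CTCF peaks of the 3 loci were kept. Of the 174 control peaks, 114 were overlapped by a peak of treated cells by any length and 60 (34.5%, Wilson 95% interval 27.8 to 41.8%) were lost. Over the whole control list 42.9% of peaks were lost, and peaks elsewhere, weighted to the same classes of control fold enrichment (10 equal classes of the list), were lost at 44.0%. The interval covers counting error only, peaks of one locus share their DNA and their libraries, and the difference was not tested. In the other direction, 9 of the 124 treated peaks arose without an overlapping control peak, and over the whole treated list that share was 8.07%. The intervals of the 3 loci overlapped. Their lost shares were 44.4% (20 of 45, 30.9 to 58.8%) at KCNJ2-SOX9, 32.2% (29 of 90, 23.5 to 42.4%) at IHH-EPHA4-PAX3 and 28.2% (11 of 39, 16.5 to 43.8%) at SHH-LMBR1. On the rest of the same chromosomes, 30.9%, 46.2% and 43.8% of control peaks were lost, so the order of the loci was not that of their chromosomes.

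The size of these shares depends on the lists, since the control list is the longer one. With the control list reduced to the length of the treated list by fold enrichment, 15.0% of the control peaks of the 3 loci were lost (20% at KCNJ2-SOX9, 17.2% at IHH-EPHA4-PAX3 and 4.17% at SHH-LMBR1) and 24.6% over the whole reduced list. With control peaks of FDR at most 1e-05 only, 22.2% were lost, against 29.3% over all such peaks. Under these settings, as with the whole lists, the share at the 3 loci was below that of the list it came from.

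Lost peaks were weak in control cells. The fold enrichment of ChIP over input, which the authors computed for each peak, had a control median of 18.4 (9.28 to 48.2) in the 60 lost peaks and 32.2 (11.8 to 79.4) in the 114 kept peaks. The ranges overlap widely, but only 2 of the 33 peaks with a fold enrichment of 40 or more were lost, against 33 of the 45 peaks under 20 (73.3%). Between them, 18 of 50 peaks from 20 to 30 and 7 of 46 peaks from 30 to 40 were lost. Elsewhere in the genome the same 4 classes, from the weakest, lost 79.9, 48.9, 26.1 and 11.0%. Lost peaks were also narrower, with a median width of 200 bp against 350 bp, the same medians as over the whole control list. In the plot of control fold enrichment, the lost peaks lie low at each locus.

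**Figure D1:**
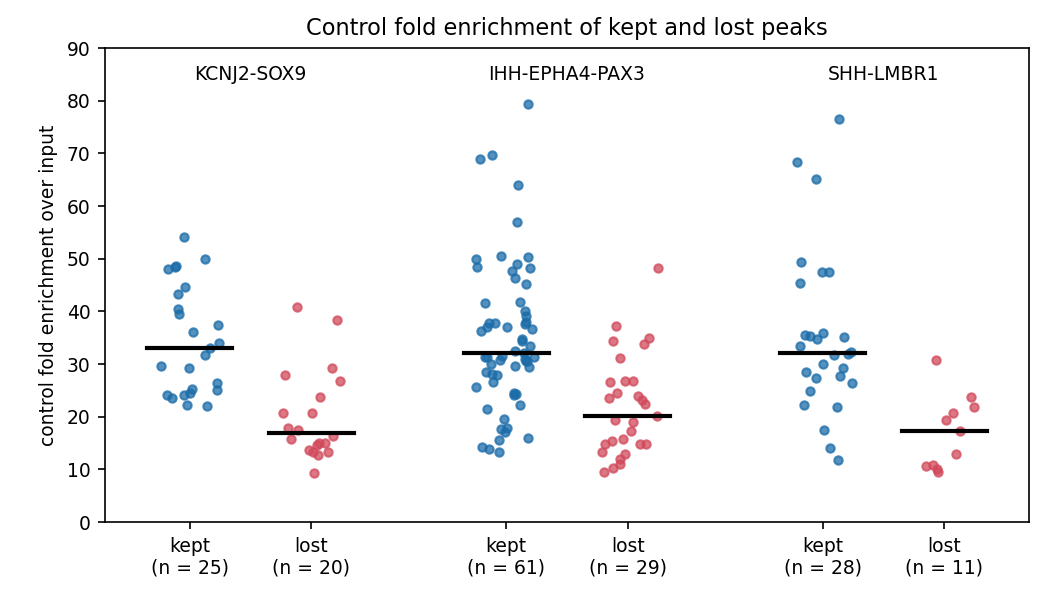
Control fold enrichment over input (y axis, linear from 0) of each kept (blue) and lost (red) control peak at the 3 loci, with black bars at the medians. At KCNJ2-SOX9 the medians were 33.0 for kept and 16.8 for lost peaks, at IHH-EPHA4-PAX3 32.1 and 20.1, and at SHH-LMBR1 32.1 and 17.3, and the points of kept and lost peaks overlap.

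A match to the CTCF core consensus was found in 87 of the 174 control peaks (50%), close to the 49.0% of the whole list, whereas 2.81% of windows shifted by 10 kb held one. The matches lay on the plus strand in 44 peaks and on the minus strand in 43. Kept peaks held a match in 70 of 114 cases (61.4%) and lost peaks in 17 of 60 (28.3%). Over the whole list these shares were 62.2% and 31.5%. Seen from the sequence, 17 of 87 peaks with a match were lost (19.5%) and 43 of 87 without one (49.4%), and elsewhere in the genome 27.6% and 57.6% were. At a control fold enrichment of 30 or more, 4 of 52 peaks with a match (7.69%) and 5 of 27 without one (18.5%) were lost. Below 30, 13 of 35 (37.1%) and 38 of 60 (63.3%) were lost. Peaks elsewhere, with or without a match, of the same control fold enrichments as these 4 groups were lost at 18.9, 22.9, 55.2 and 68.7%. A match is a likeness of letters and not a measured binding site.

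By position, 2 of the 16 peaks centred within 1 kb of the start of a protein-coding gene were lost (12.5%, 3.50 to 36.0%). Of the 87 peaks in introns 31 were lost (35.6%, 26.4 to 46.1%), and of the 60 intergenic peaks 24 (40%, 28.6 to 52.6%). These intervals overlap. Peaks elsewhere of the same control fold enrichments as these groups were lost at 43.2, 46.1 and 43.1%. The first value lies above the interval of its group and the second at the upper end of its own. In UTRs 2 of 14 peaks were lost (14.3%), in coding exons 1 of 6 (16.7%) and in noncoding exons 2 of 7 (28.6%). For these, peaks elsewhere of the same control fold enrichments were lost at 40.7, 40.1 and 34.5%. How far strength, sequence and position account for one another was not tested.

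Fold enrichments of separate lists are not on one scale, so the control and treated values of a peak are printed side by side and are not read as a change. The percentile of each peak in its own list is given with them. The treated list is shorter and lacks many weak peaks, so a shared peak tends to stand at a lower percentile there, and over the 27107 shared peaks of the genome the median difference, treated minus control, was -9.21 percentile points, with 35.2% of peaks higher. At the 3 loci it was -8.18 (47 higher, 67 lower), close to that background. The direction also varied with control strength. Of the kept peaks with a control fold enrichment of 40 or more, 6 stood higher and 25 lower. Of those under 20, 10 stood higher and 2 lower. Peaks named below for a high or a low control fold enrichment share this tendency. The median was -29.1 at KCNJ2-SOX9 (6 higher, 19 lower), -8.52 at IHH-EPHA4-PAX3 (23 higher, 38 lower) and 5.95 at SHH-LMBR1 (18 higher, 10 lower).

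With percentiles taken among shared peaks alone, a setting added after the data were seen that gives both lists the same length, the background median was 0.69. The medians of the loci were then -11.1 at KCNJ2-SOX9 (quartiles -21.3 and 9.23), 2.90 at IHH-EPHA4-PAX3 (-6.58 and 23.3) and 17.5 at SHH-LMBR1 (-4.08 and 27.7). The order of the loci was the same in both settings, their quartile ranges overlapped, and the differences were not tested. The GC content of the windows, in the same order, was 40.1, 42.2 and 46.1%, and its part was not tested. The plot of percentiles shows the spread around these medians.

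**Figure D2:**
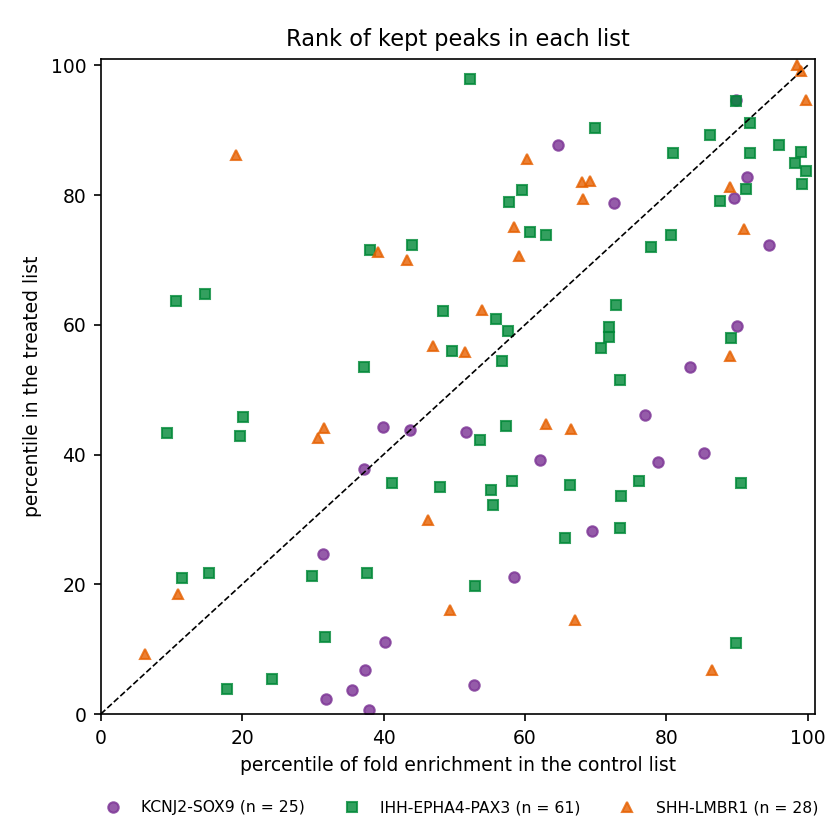
Percentile of fold enrichment of each kept peak in the control list (x axis) and in the treated list (y axis) at KCNJ2-SOX9 (circles), IHH-EPHA4-PAX3 (squares) and SHH-LMBR1 (triangles). The dashed line marks equal percentiles, and 19 of the 25 KCNJ2-SOX9 peaks lie below it against 10 of the 28 SHH-LMBR1 peaks, where 64.8% of all shared peaks of the genome do.

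At the KCNJ2-SOX9 locus, the desert of coding genes from the end of KCNJ2 to the start of SOX9 spans 1941 kb. It held 19 control peaks, of which 11 were kept and 8 lost (42.1%, 23.1 to 63.7%). Peaks elsewhere of the same control fold enrichment were lost at 48.7%. No peak arose in the stretch. In order from KCNJ2 toward SOX9, kept and lost peaks were interspersed at first, then 4 neighbouring peaks between positions 69081501 and 69420450 were lost together, over 339 kb. Their control fold enrichments were among the lowest of the stretch (12.7 to 17.9). Among peaks inside the stretch, the widest interval between kept peaks was 486 kb, where the widest between all control peaks had been 291 kb. The interval from the control peak at the KCNJ2 start to the first peak of the stretch, not counted here, was 384 kb.

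The strongest peak of the stretch sat next to SOX9, in an intron of the noncoding gene SOX9-AS1 and 2235 bp upstream of the SOX9 start. This peak (chr17:70114751-70115100) had a fold enrichment of 54.1 in control cells, at percentile 94.5, and 38.4 in treated cells, at percentile 72.3. A weaker peak within SOX9, 889 bp downstream of its start, was kept with 23.6 in control and 9.47 in treated cells, at percentiles 35.5 and 3.64. Both peaks at SOX9 were kept, and neither held a consensus match. Farther into the desert, the peak at chr17:69469301-69469700 had 40.5 in control and 23.3 in treated cells (percentiles 78.8 and 38.8). The peak at chr17:69080351-69080700, one of those whose perfect consensus is printed above, had 39.5 in control and 26.2 in treated cells (percentiles 77.0 and 46.1). The peak at chr17:68618551-68618900 had 36.0 in control and 19.2 in treated cells (percentiles 69.5 and 28.2). Of the 11 kept peaks of the stretch, 10 had the lower percentile in the treated list, with a median difference of -30.6, beside -9.21 and 35.2% higher over all shared peaks. With percentiles among shared peaks alone, 9 were lower and the median was -20.8, beside 0.69.

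One strong peak of the desert was lost. It lay at chr17:69760751-69761000, 356285 bp from the SOX9 start, with a control fold enrichment of 38.4 (percentile 74.7), and the nearest treated peak was 194400 bp away. The weakest kept peak of the stretch (chr17:69457151-69457400) had a fold enrichment of 22.1 in control cells and 17.9 in treated cells. The lost peak beside the kept peak at 68618551, shown above, had 26.7, so the control ranges of kept and lost peaks overlapped in the stretch. This lost peak was weaker than the kept peaks on either side of it. One of those, at chr17:68632701-68633050, had 29.6 in control and 9.88 in treated cells, and its percentiles (52.8 and 4.48) lay farther apart downward than those of any other kept peak of the locus. The perfect consensus was not confined to kept peaks either. The lost peaks at chr17:69114251-69114550, in an intron of the noncoding gene CASC17, and at chr17:69234001-69234250 held it on the plus strand with control fold enrichments of 14.9 and 13.2. They were the only lost peaks of the 3 loci with no mismatch to the consensus.

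KCNJ2 itself had a control peak 464 bp upstream of its start, in an exon of the antisense gene KCNJ2-AS1, with a fold enrichment of 17.4 (percentile 18.8), and this peak was lost. The nearest kept peak to the KCNJ2 start was 24239 bp away. Beyond SOX9, 9 of 15 peaks were lost (60.0%, 35.7 to 80.2%), and peaks elsewhere of the same control fold enrichment were lost at 43.0%, inside the interval. A run of 6 of them lay between 70142351 and 70475600 and began with the peak next to SOX9. That run was followed by 3 strong peaks in introns of the noncoding gene LINC00511, and all 3 were kept. They had control and treated fold enrichments of 48.4 and 58.3, 49.96 and 45.1, and 48.5 and 32.0, in order along the chromosome. In SLC39A11, a zinc transporter gene, the peak at chr17:70721601-70722000 had 34.0 in control and 49.4 in treated cells (percentiles 64.7 and 87.7), the largest upward difference of percentiles of the locus. The next peak, at chr17:70723801-70724250, was lost in spite of a control fold enrichment of 40.7. The map of the locus shows this mixture of fates at close range.

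**Figure D3:**
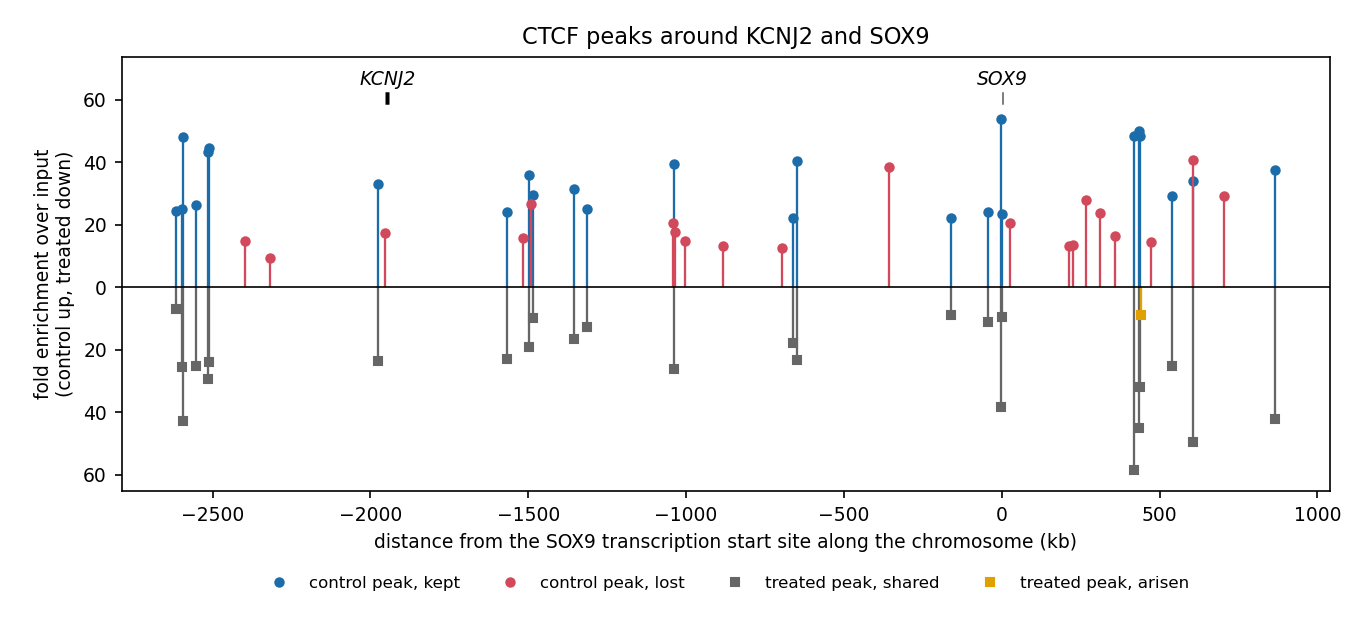
CTCF peaks around KCNJ2 and SOX9 by distance from the SOX9 start (x axis, kb), with control fold enrichment drawn upward (blue kept, red lost) and treated fold enrichment downward (grey shared, yellow arisen). Both directions share a linear axis, although fold enrichments of separate lists are not on a common scale. Black bars are the genes, and 8 of the 19 control peaks between them are red.

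At the IHH-EPHA4-PAX3 locus the outcome differed along the DNA. The 2357 kb from IHH to EPHA4 held 54 control peaks, of which 18 were lost (33.3%, 22.2 to 46.6%), against 42.9% of peaks elsewhere of the same control fold enrichment. The end of SLC4A3, an anion exchanger gene, divides this stretch into a gene-rich and a gene-poor side, a division chosen after the annotation was seen. On the gene-rich side, 581 kb long with a GC content of 50.8%, 6 of 34 peaks were lost (17.6%, 8.35 to 33.5%). On the gene-poor side, 1776 kb long with a GC content of 39.6%, 12 of 20 were lost (60.0%, 38.7 to 78.1%). The intervals do not overlap, but they cover counting error only and the difference was not tested. The median control fold enrichment also differed, 33.5 against 23.6. Peaks elsewhere of the same control fold enrichments were lost at 34.8% and 56.6%. The density on the gene-poor side was 11.3 peaks per Mb in control cells and 5.07 in treated cells. Over the autosomes and X it was 15.6 and 9.73, so the treated density was lower there too.

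Among the strong peaks from IHH to EPHA4, the one in an intron of ASIC4, a gene of the acid-sensing channel family, had the highest control fold enrichment. It lay at chr2:220394901-220395300 and was kept, with 68.9 in control and 48.4 in treated cells (percentiles 99.1 and 86.7). The peak just beyond SLC4A3, at chr2:220507201-220507650, was kept with 64.0 and 46.7 (percentiles 98.2 and 84.9) and holds the perfect consensus shown above. A peak in PTPRN, the gene of a phosphatase-like protein of secretory granules, stood high in both lists with 50.5 and 48.3 (percentiles 91.9 and 86.5). A pair of strong control peaks at DNPEP, an aspartyl aminopeptidase gene, and its antisense gene DNPEP-AS1 stood much lower in the treated list. The first, at chr2:220253201-220253500, had 48.4 and 12.7 (percentiles 89.9 and 11.0), the largest downward difference of percentiles of the locus, and the other, at chr2:220267651-220268000, had 49.1 and 22.0 (percentiles 90.6 and 35.6). Peaks close to each other in the control list were thus far apart in the treated list.

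The strongest lost peak of the 3 loci was in the same gene-rich side, at chr2:220076301-220076550 in an intron of ABCB6, a transporter gene of mitochondria and other membranes. Its control fold enrichment was 48.2 (percentile 89.7). In contrast, a weak peak in an intron of NHEJ1, a DNA end-joining gene, was kept with the largest upward difference of percentiles of the locus. This peak, at chr2:220019751-220020150, had 13.9 in control and 33.8 in treated cells (percentiles 10.6 and 63.7). The nearest peak to the IHH start was kept. It lay 2768 bp downstream, in an intron, with 49.9 and 43.7 (percentiles 91.3 and 80.9). All 5 control peaks within 50 kb of the IHH start were kept, beside 42.9% lost over the whole control list. Of the 18 peaks before IHH 2 were lost (11.1%, 3.10 to 32.8%), against 33.4% of peaks elsewhere of the same control fold enrichment. They include the strongest control peak of the 3 loci, at chr2:219860701-219861100, with 79.4 in control and 45.9 in treated cells.

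EPHA4 kept the peak at its start. This peak, 497 bp downstream of the start at chr2:222438201-222438650, had 41.7 in control and 48.2 in treated cells (percentiles 81.0 and 86.5). A second, weaker peak nearby in EPHA4 was also kept, with 13.3 and 25.1 (percentiles 9.35 and 43.3), whereas the third, deep in the gene, had 9.41 and was lost. Toward IHH, the last 3 control peaks before EPHA4 were all lost, and with the one inside EPHA4 they formed a run of 4 lost peaks over 420 kb. Their control fold enrichments were 11.9, 12.9, 31.2 and 9.41. In treated cells, 885 kb between the kept peak ending at 221552350 and the kept peak in EPHA4 at 222437151 held no peak shared with control cells, the widest interval between kept peaks at the 3 loci.

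Between EPHA4 and PAX3, a stretch of 626 kb with a GC content of 38.7%, 6 of 8 peaks were lost (75.0%, 40.9 to 92.9%). Peaks elsewhere of the same control fold enrichment were lost at 44.5%, which lies inside the interval. The density was 12.8 control peaks and 3.20 treated peaks per Mb, beside 15.6 and 9.73 over the autosomes and X. The first 4 peaks after EPHA4 were lost together, with control fold enrichments of 26.5, 19.5, 24.4 and 37.2. The last of them, at chr2:222833851-222834200, was the strongest control peak of the stretch (percentile 72.2). The kept peaks, at chr2:222889651-222890000 and chr2:222922001-222922350, had 29.7 and 16.2, and 31.6 and 22.2, in control and treated cells. They stood at percentiles 52.9 and 58.2 in control cells and 19.7 and 35.9 in treated cells. The lost peaks between them had control fold enrichments of 26.8 and 20.1. The ranges of kept and lost peaks thus overlapped here, and the one perfect consensus of the stretch, on the plus strand, lay in the kept peak nearest to PAX3. PAX3 itself held no control peak in its body, and the nearest one, 16633 bp upstream of its start at chr2:223180251-223180450, was kept with 15.9 and 16.9 (percentiles 15.3 and 21.7).

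**Figure D4:**
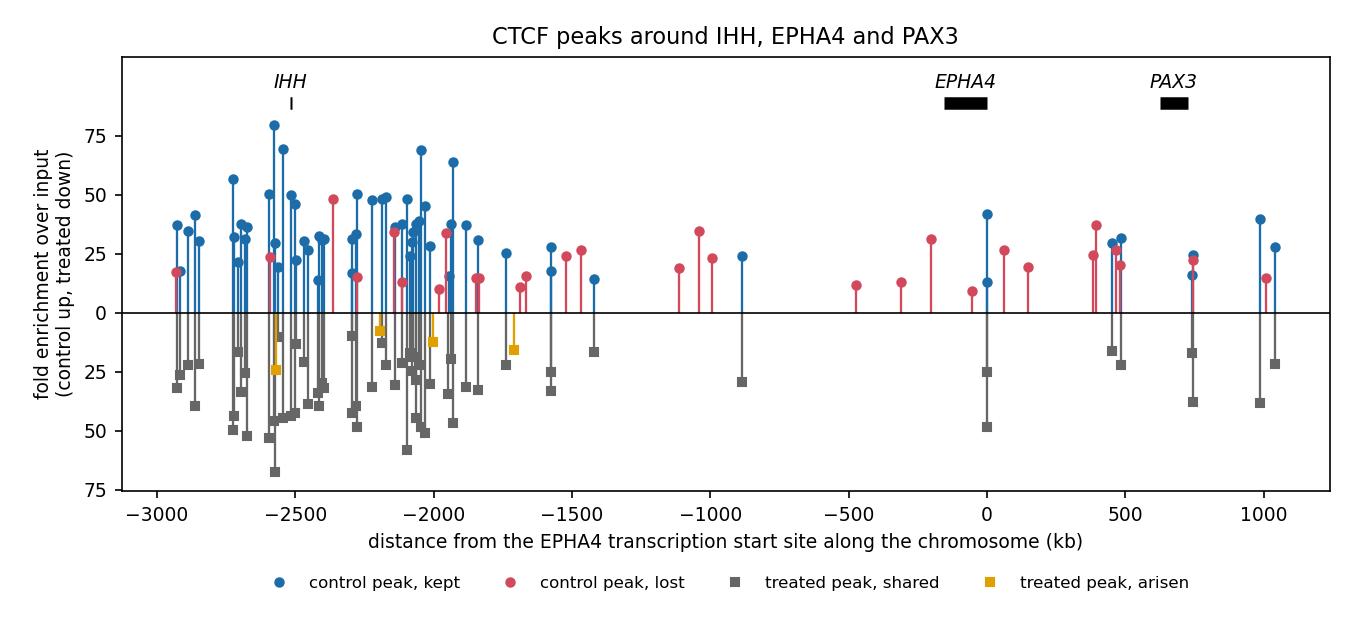
CTCF peaks around IHH, EPHA4 and PAX3 by distance from the EPHA4 start (x axis, kb), drawn as control fold enrichment upward (blue kept, red lost) and treated fold enrichment downward (grey shared, yellow arisen). Both directions share a linear axis, although fold enrichments of separate lists are not on a common scale. Black bars are the genes, and the lower side is empty over the 885 kb to the left of EPHA4's kept peaks.

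At the SHH-LMBR1 locus, the stretch from SHH to LMBR1 spans 856 kb and held 10 control peaks, of which 2 were lost (20%, 5.67 to 51.0%). Peaks elsewhere of the same control fold enrichment were lost at 41.0%, inside the interval. The lost peaks had control fold enrichments of 9.50 (chr7:155848251-155848450) and 23.7 (chr7:156442801-156443000, in an intron of RNF32), and the weakest kept peak, at chr7:156375451-156375750, had 21.8 in control and 24.8 in treated cells. The widest interval between kept peaks, 316 kb, was also the widest between all control peaks. The line of peaks from SHH toward LMBR1 therefore had the same widest interval before and after treatment.

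Of the 5 control peaks within 50 kb of the SHH start, 4 were kept and 1 was lost, beside 42.9% lost over the whole control list. The nearest, 2968 bp upstream of the SHH start at chr7:155607901-155608350, had 49.4 in control and 39.8 in treated cells (percentiles 90.9 and 74.7). On the other side of the gene, the peak at chr7:155589651-155590000 had 76.6 and 58.4 (percentiles 99.7 and 94.7). Both held a plus-strand match, shown above. A narrow peak in an intron of SHH, at chr7:155597801-155597900, had 17.5 in control and 48.0 in treated cells (percentiles 19.1 and 86.2), the largest upward difference of percentiles of the 3 loci. This control peak was 100 bp wide with an FDR of 0.00105, near the largest of the control list (0.00132). Its overlap was 28.6% of the wider treated peak. That was the smallest value among kept peaks of the 3 loci, tied with the peak at chr17:69955301-69955650. Farther toward LMBR1, the peak at chr7:155655251-155655550 also stood higher in the treated list, with 32.3 and 47.3 (percentiles 60.3 and 85.5), and that at chr7:155867701-155868000 stood lower, with 34.8 and 25.4 (percentiles 66.5 and 44.0). The next kept peak, at chr7:155949601-155949850, stood higher in the treated list, with 24.9 and 37.7 (percentiles 39.2 and 71.2). Beyond it lay peaks far lower in the treated list. In an intron of the noncoding gene RNF32-DT, the peak at chr7:156352851-156353100 had 45.3 in control and 11.1 in treated cells (percentiles 86.4 and 6.84), the largest downward difference of the 3 loci. The peak at chr7:156266101-156266550 had 35.0 in control and 14.2 in treated cells (percentiles 67.1 and 14.5). The kept peaks closest to LMBR1 stood higher in the treated list. They were at chr7:156375451-156375750 (percentiles 30.7 and 42.5) and chr7:156419901-156420050 (percentiles 31.6 and 44.1). Of the 8 kept peaks of the stretch, 4 stood higher and 4 lower, with a median difference of -2.19, beside -9.21 over all shared peaks. With percentiles among shared peaks alone the median was 9.10, beside 0.69. Before SHH, outside the stretch, the median in the whole lists was 8.46 (9 higher, 4 lower).

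Within LMBR1, 4 of 6 peaks were lost (66.7%, 30 to 90.3%), all 6 of them in introns. At the same control fold enrichment, peaks elsewhere were lost at 56.4%. From the end of LMBR1 toward its start, 3 were lost (10.6, 21.8 and 17.3), 2 were kept and the last was lost. The kept peaks, at chr7:156609651-156610050 and chr7:156613201-156613500, had 27.4 and 19.8, and 28.5 and 14.8, in control and treated cells. The lost one beyond them, at chr7:156620351-156620650, had 30.8, the highest of the 6. All 3 peaks of the gene with a consensus match had it on the minus strand. The peak at the LMBR1 start, 365 bp upstream at chr7:156686051-156686500, had 20.8 and was lost, and the nearest kept peak to that start was 15890 bp away. Together with the RNF32 peak, the 3 lost LMBR1 peaks named first formed the longest lost run of the locus, 4 peaks over 128 kb. A peak that arose in treated cells, at chr7:156473201-156473300, lay within this span. The LMBR1 body has a GC content of 39.1%, against 46.1% for the window around it.

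Beyond LMBR1, the peak at chr7:156742201-156742550, centred 30 bp from the start of NOM1, a gene of a nucleolar protein, stood near the top of both lists. Its fold enrichment was 65.1 in control cells (percentile 98.5) and 104 in treated cells (percentile 99.997). Before SHH, 3 of 16 peaks were lost (18.8%, 6.59 to 43.0%), against 39.0% of peaks elsewhere of the same control fold enrichment, and the lost ones had a median control fold enrichment of 12.8. The map of the locus shows the red points gathered at and around LMBR1 and the tall treated bars on either side.

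**Figure D5:**
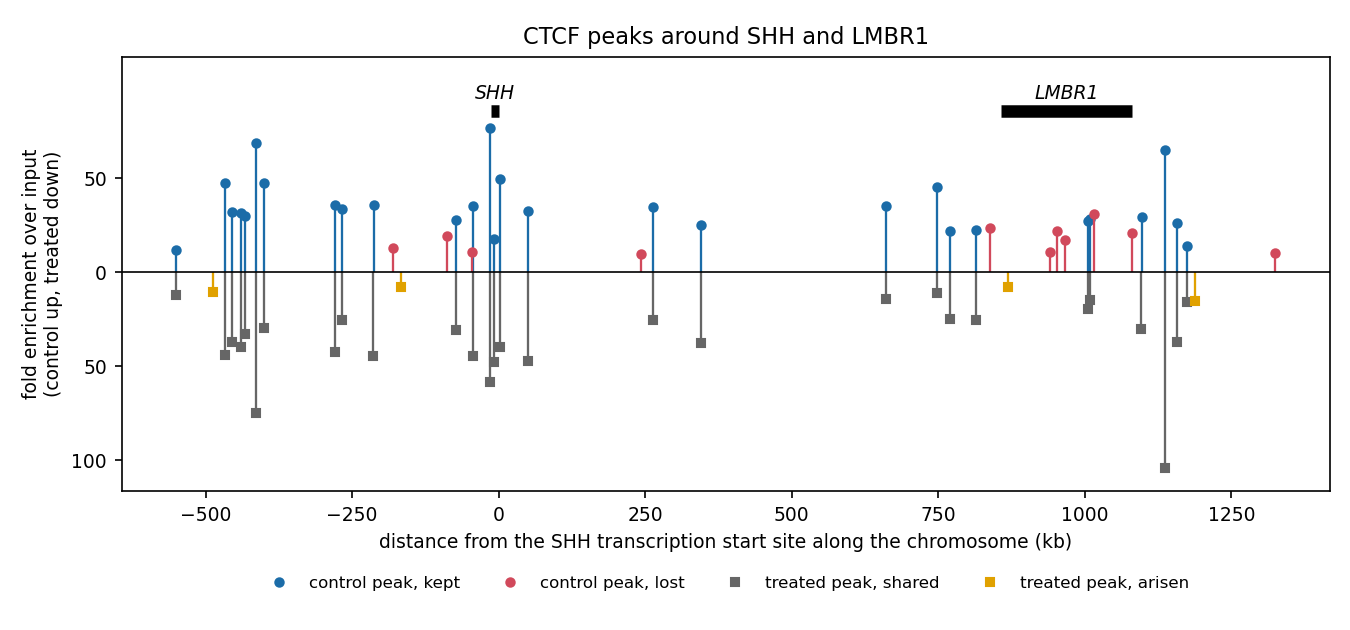
CTCF peaks around SHH and LMBR1 by distance from the SHH start (x axis, kb), with control fold enrichment upward (blue kept, red lost) and treated fold enrichment downward (grey shared, yellow arisen). Both directions share a linear axis, although fold enrichments of separate lists are not on a common scale. Black bars are the genes, 4 of the 6 control peaks over LMBR1 are red, and the longest downward bar, 104, is the peak at the NOM1 start.

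The start sites of the 7 genes can be set side by side. Of all control peaks of the genome, 42.9% were lost. The control peak nearest to the start was kept at SOX9, IHH, EPHA4, PAX3 and SHH and lost at KCNJ2 and LMBR1. The lost ones had control fold enrichments of 17.4 and 20.8, and the kept ones ranged from 15.9 at PAX3 to 49.9 at IHH, so the groups overlapped. Of the kept peaks, those of EPHA4 and PAX3 stood at a higher percentile in the treated list and those of SOX9, IHH and SHH at a lower one. With 1 peak per gene and no replicate values, none of these differences can be set against an error.

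Peaks that arose in treated cells were few and mostly weak. The 9 of them were 1 at KCNJ2-SOX9, 4 at IHH-EPHA4-PAX3 and 4 at SHH-LMBR1, with treated fold enrichments of 7.84 to 24.1. The strongest, at chr2:219867751-219868150 in a coding exon of CFAP65, a cilia and flagella gene, had 24.1 and an FDR of 3.17e-09, and it was the only one with an FDR of at most 1e-05. It lay 300 bp from a kept control peak. The one at chr17:70557351-70557550, in LINC00511, had 8.82 and lay 500 bp from the last of the 3 kept peaks there. Between IHH and EPHA4, peaks arose at chr2:220245951-220246100 in a DNPEP intron (7.84), at chr2:220435201-220435350 in a coding exon of the region shared by INHA and OBSL1 (12.2) and at chr2:220727951-220728200 between genes (15.5). Around SHH and LMBR1 they arose at chr7:155116951-155117050 (10.9), at chr7:155437851-155438000 in an RBM33 intron (7.96), at chr7:156473201-156473300 in a UTR of LMBR1 (7.89) and at chr7:156793201-156793400 in an intron of MNX1, a motor neuron homeobox gene (15.2). None lay in the KCNJ2 to SOX9, EPHA4 to PAX3 or SHH to LMBR1 stretch.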

How the data were processed

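CTCF ChIP-seq peaks of untreated and CBL0137-treated HT1080 cells were analysed. The submitters' processing notes name Bowtie2 2.2.3, SAMtools 1.5 and deepTools 2.0, and the methods name hg19 and PePr, which called 1 list per condition from its 2 ChIP and 2 input replicates. The fold enrichment of each peak is a ratio of ChIP over input computed by the authors. The deposited p-value and FDR of each peak are also the authors', and no p-value was computed here. Positions in the lists fall on steps of 50 bp. Depth per library is not held by the lists, and reads and signal tracks were not analysed here, so counting precision of single peaks is unknown. The labels give no separate cultures for replicates, while the methods name 2 biological replicates. The study also reports read totals per library, which were not used here. The other deposited lists hold the authors' own comparison of the conditions (sites with fold, p-value and FDR) and were not used.

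The members and lists were chosen with earlier results of these data known. A control peak was kept if any treated peak overlapped it, and lost otherwise. Peaks named were those nearest to the 7 gene starts, in each stretch between neighbouring genes the 5 with the highest control fold enrichment, the weakest kept and the strongest lost, every arisen peak, and in each locus the shared peaks with the largest upward and downward difference of percentiles. Other named peaks were chosen after their values were seen. Annotation was GENCODE lifted to hg19. Wilson 95% intervals cover counting error only. Shares elsewhere were weighted over 10 equal classes of control fold enrichment. Python 3.11.15, numpy 2.4.6, pandas 2.3.3, pysam 0.24.0, samtools 1.23.1 and matplotlib 3.10.9 were used, and routines were tested on simulated data.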

Additional observations from a re-analysis of the deposited data

How the results depend on the processing

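The lost share of the 3 loci (34.5%) depended most on the length of the lists. With the control list reduced to as many of its strongest peaks as the treated list holds, it was 15.0% (20% at KCNJ2-SOX9, 17.2% at IHH-EPHA4-PAX3, 4.17% at SHH-LMBR1). With control peaks of FDR at most 1e-05 against the whole treated list, it was 22.2% (30.3% at KCNJ2-SOX9, 19.7% at IHH-EPHA4-PAX3). Where the shared bases had to exceed 50% of the wider peak, it was 42.0% (43.3% at IHH-EPHA4-PAX3). In the same order of settings the whole list gave 24.6%, 29.3% and 50.7%. Under these 3 settings KCNJ2-SOX9 had the highest share of the 3 loci and SHH-LMBR1 the lowest. Arisen peaks numbered 23 of 124 under the stricter overlap, where the share over the whole treated list was 20.8%. With a fold enrichment of at least 10 in both lists they numbered 5 of 115 (whole list 7.72%). With a treated FDR of at most 1e-05 there was 1 of 94 (whole list 2.30%). The main setting gave 9 of 124 (whole list 8.07%). The share with a consensus match was 12.1% with no mismatch and 76.4% with at most 2, against 50%. With percentiles among shared peaks alone, added after seeing the data, the median difference was 1.93 at the 3 loci against -8.18 and 2.90 at IHH-EPHA4-PAX3 against -8.52, both of the other sign, -11.1 at KCNJ2-SOX9 against -29.1, and 17.5 at SHH-LMBR1 against 5.95, since the whole lists differ in length. The other planned settings (centres at most 200 bp apart, FDR in both lists, fold enrichment for the lost shares, peaks between the genes only, a narrower search window) moved the values by less than their intervals. No paired analysis was possible because each list pools its replicates, and for the same reason no replicate could be left out. Whether a lost peak fell just below the calling threshold in treated cells cannot be read from the lists.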
